A study of Mus musculus with 20 samples.

Results

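The C1q/TNF-related proteins (CTRPs) are secreted paralogs of adiponectin, and 6 of their genes, *C1qtnf1*, *C1qtnf2*, *C1qtnf3*, *C1qtnf5*, *C1qtnf6*, and *C1qtnf7*, were followed in cultured mouse renal myofibroblasts, of 51826 genes in the table. The 6 genes were chosen by name, on their levels across genotypes in these same libraries, with the question whether they follow the loss of *C1qtnf3* in cells without full-length WWP2. Differences between genotypes in these genes are therefore a description and carry no test. The same holds for the difference between the genotypes in the response to TGFβ1, which is built from those contrasts. The response to TGFβ1 within a genotype is another contrast and was tested, but it uses the same libraries, so its *P* values for these genes are not independent of the choice. Of the 6 genes, 5 had at least 5 counts in at least 5 libraries and were among the 20407 genes tested, whereas *C1qtnf5* had no count in any library.

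The libraries were made from poly-A RNA of primary renal myofibroblasts of C57BL/6J mice, either wild type (WT) or from a constitutive WWP2-/- line (KO in the labels). By the study's account this line lacks the full-length and N isoforms of the ubiquitin ligase WWP2. Cells grew out of minced kidney pieces and were used at the second passage, so they were a culture of outgrown cells and not a sorted type. Each genotype was left untreated or given TGFβ1, the cytokine that drives fibroblasts toward contractile, matrix-producing myofibroblasts, with 5 libraries in each of the 4 groups and 20 in all. The labels give no dose or duration of TGFβ1, which the study's own text states, and no age or sex of the mice. They do not say whether libraries of 1 number come from 1 mouse or culture, so *P* values measure the spread between these libraries, which may be partly technical.

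CTRPs share a collagen-like stretch and a globular C1q domain, assemble into trimers and larger complexes, and act on energy metabolism, inflammation, and matrix turnover. CTRP3, encoded by *C1qtnf3* and also called cartducin, was first known from developing cartilage and is made in adipose tissue and by fibroblasts, and CTRP6 is an inhibitor of the alternative complement pathway. The same globular domain ends the network-forming collagens VIII and X, the emilins, and the subunits of complement C1q.

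The windows around the starts that RefSeq annotates for the genes are shown first, since the genes lie at separate loci and their levels parted in several libraries. RefSeq held a window of 300 bases (250 before the start to 50 after it, GRCm38.p6) for 5 of the 6 genes, and *C1qtnf1* had no entry. These starts can differ from the GENCODE gene positions given further below. The *C1qtnf5* window, not printed, is chr9:44101520-44101819 (plus strand), wholly before the GENCODE gene at chr9:44107245-44109187. The *C1qtnf6* window lies inside the GENCODE gene at chr15:78523346-78531416. Capitals mark 3 motifs searched on both strands, the TATA box TATAAA, the SMAD element CAGAC or its reverse complement, and the E-box with the letters CANNTG. The windows are chr15:10952082-10952381 (plus strand) for *C1qtnf3*, chr5:43515319-43515618 (plus strand) for *C1qtnf7*, chr11:43474056-43474355 (plus strand) for *C1qtnf2*, and chr15:78529602-78529901 (minus strand) for *C1qtnf6*.
C1qtnf3: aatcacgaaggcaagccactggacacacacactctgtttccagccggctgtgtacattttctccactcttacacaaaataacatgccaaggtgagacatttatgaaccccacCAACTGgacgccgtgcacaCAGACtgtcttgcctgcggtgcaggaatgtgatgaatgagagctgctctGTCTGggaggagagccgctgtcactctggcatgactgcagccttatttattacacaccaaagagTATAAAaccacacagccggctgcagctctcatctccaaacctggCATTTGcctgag
C1qtnf7: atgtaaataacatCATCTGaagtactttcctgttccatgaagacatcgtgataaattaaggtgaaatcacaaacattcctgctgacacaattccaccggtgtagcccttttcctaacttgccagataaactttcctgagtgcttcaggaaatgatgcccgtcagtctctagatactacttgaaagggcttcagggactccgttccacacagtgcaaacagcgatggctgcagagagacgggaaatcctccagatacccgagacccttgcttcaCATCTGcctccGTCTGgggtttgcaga
C1qtnf2: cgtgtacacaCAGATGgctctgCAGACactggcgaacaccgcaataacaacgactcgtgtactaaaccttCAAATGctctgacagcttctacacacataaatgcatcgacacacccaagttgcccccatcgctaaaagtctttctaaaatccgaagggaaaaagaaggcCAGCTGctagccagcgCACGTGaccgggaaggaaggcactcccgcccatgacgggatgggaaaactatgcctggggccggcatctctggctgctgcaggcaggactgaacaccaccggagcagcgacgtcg
C1qtnf6: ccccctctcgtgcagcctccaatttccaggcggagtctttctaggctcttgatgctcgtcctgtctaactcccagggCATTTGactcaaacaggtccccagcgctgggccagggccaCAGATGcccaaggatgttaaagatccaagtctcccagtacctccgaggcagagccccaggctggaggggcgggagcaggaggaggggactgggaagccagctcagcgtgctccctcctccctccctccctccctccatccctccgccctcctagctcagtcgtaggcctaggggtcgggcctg
Only the *C1qtnf3* window among the 5 held TATAAA, ending on the base before the annotated start, against 13.6% of 32851 RefSeq windows of the same length. It also held the SMAD element on each strand, beginning 119 and 70 bases before the start. The SMAD element was present in 4 of the 5 windows, in all but that of *C1qtnf6*, and in 49.6% of all windows. E-boxes were present in all 5 windows and in 72.3% of all windows, so these letters set none of the genes apart. Of the motifs searched without capitals, the AP-1 element TGACTCA was present only in *C1qtnf6*, where it overlaps an E-box, and in 5.2% of all windows. The GC box GGGCGG was present in *C1qtnf2* and *C1qtnf6* (35.7% of all windows) and the CCAAT box in *C1qtnf5* and *C1qtnf6* (37.4%). The GC content of the windows ran from 46.7% in *C1qtnf7* and 50.7% in *C1qtnf3* to 55.0% in *C1qtnf2* and 63.7% in *C1qtnf6*, with a median of 52.7% over all windows. A match of letters is not a binding site, and factor binding was not measured in these libraries.

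Total counts per library were between 47520759 and 73063697. *Wwp2* itself was at 53.1±4.14 and 53.5±2.89 CPM (counts scaled to the TMM-normalized library size; mean±SD, *n*=5) in untreated and TGFβ1-treated WT cells, and at 20.5±1.62 and 19.0±1.72 CPM in WWP2-/- cells. The libraries differed in ways that the groups do not explain. *Xist* without Y-linked transcripts was found in 6 libraries, Y-linked transcripts without *Xist* in 9, and both in 5, and these classes were unevenly spread: 8 of 10 WT libraries held *Xist*, against 3 of 10 WWP2-/- libraries. A pair of WWP2-/- libraries, untreated replicate 3 and TGFβ1 replicate 1, had *Acta2* (smooth muscle actin, the defining myofibroblast marker) at 38.9 and 50.4 CPM, against at least 1016 CPM elsewhere. The summed level of 8 fibroblast markers had a median of 13500 and 22400 CPM in untreated and treated WT cells and of 4340 and 4160 CPM in WWP2-/- cells. The markers and the C1q/TNF-related genes were thus both lower in WWP2-/- group medians, and in step in some libraries but not in all. Untreated WT replicate 4, with the lowest markers of all libraries (2080 CPM), had the lowest value of its group for each of the 5 measured genes. Treated WT replicate 3 had the markers at 7590 CPM, the lowest of its group. There *C1qtnf2*, *C1qtnf3*, and *C1qtnf6* were also the lowest of their group, at 0.319, 9.42, and 19.6 CPM. In the same library *C1qtnf1* at 63.5 CPM and *C1qtnf7* at 25.5 CPM lay amid the other treated WT libraries. The part of the markers, of the *Xist* classes, and of the low *Acta2* libraries in the differences below was not tested beyond the values given beside them. In bulk RNA, fewer cells of a type and less RNA per cell cannot be told apart.

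*C1qtnf3* showed the deepest difference of the 5 genes in untreated cells. In untreated WT cells the 5 libraries, in order of replicate number, were at 19.7, 18.1, 232, 5.87, and 25.6 CPM. In untreated WWP2-/- cells they were at 0.688, 0.760, 0.845, 1.20, and 1.27 CPM. The highest WWP2-/- value was under the lowest WT value, and the WWP2-/- values were close to one another, whereas the WT group held a single library, replicate 3, far above the rest. From WT to WWP2-/- the log2 fold change was −5.98 (SE 1.07), and it was −4.21 without that WT library, so the size of the difference rested in part on it, but not its direction. The WWP2-/- libraries still held 42 to 86 counts of *C1qtnf3* each, well over the 3 counts taken as the floor.

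Given TGFβ1, the 2 genotypes no longer separated fully for *C1qtnf3*. In treated WT cells it was at 17.9, 18.3, 9.42, 28.3, and 22.9 CPM. In treated WWP2-/- cells it was at 4.78, 1.80, 33.8, 3.43, and 2.01 CPM. Of the 5 treated WWP2-/- libraries, 4 lay below every treated WT library and replicate 3 lay above all of them. Between genotypes the log2 fold change was −1.08 (SE 0.867) with this library and −2.70 without it. The lowest WT value in each condition, 5.87 and 9.42 CPM, belonged to the WT library with only Y-linked transcripts. With *Xist* as a covariate the log2 fold changes between genotypes were −5.59 untreated and −0.64 with TGFβ1. The high WWP2-/- library had the summed fibroblast markers at 9680 CPM, the highest of the WWP2-/- libraries, and *Acta2* at 3430 CPM.

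Within WWP2-/- cells, each TGFβ1-treated library had more *C1qtnf3* than each untreated library. Such a complete separation upward was seen in 0.167% of genes tested. A log2 fold change of 3.26 (SE 0.947) did not pass the threshold by edgeR's quasi-likelihood test after adjustment over all genes (adjusted *P* = 0.631), with a range of 0.0365 to 1 over all alternatives run. Only DESeq2 called it (log2 fold change 3.31, adjusted *P* = 0.0365). Without treated replicate 3 the log2 fold change was 1.66. The untreated WWP2-/- libraries that serve as the base of this comparison are those on whose low values the genes were chosen. In WT cells the log2 fold change with TGFβ1 was −1.64 (SE 0.877, adjusted *P* = 0.799, edgeR), and it turned to 0.16 without untreated replicate 3. The difference between the genotypes in this response was 4.90 on the log2 scale (SE 1.29), and 3.13 without untreated WT replicate 3.

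**Figure D1:**
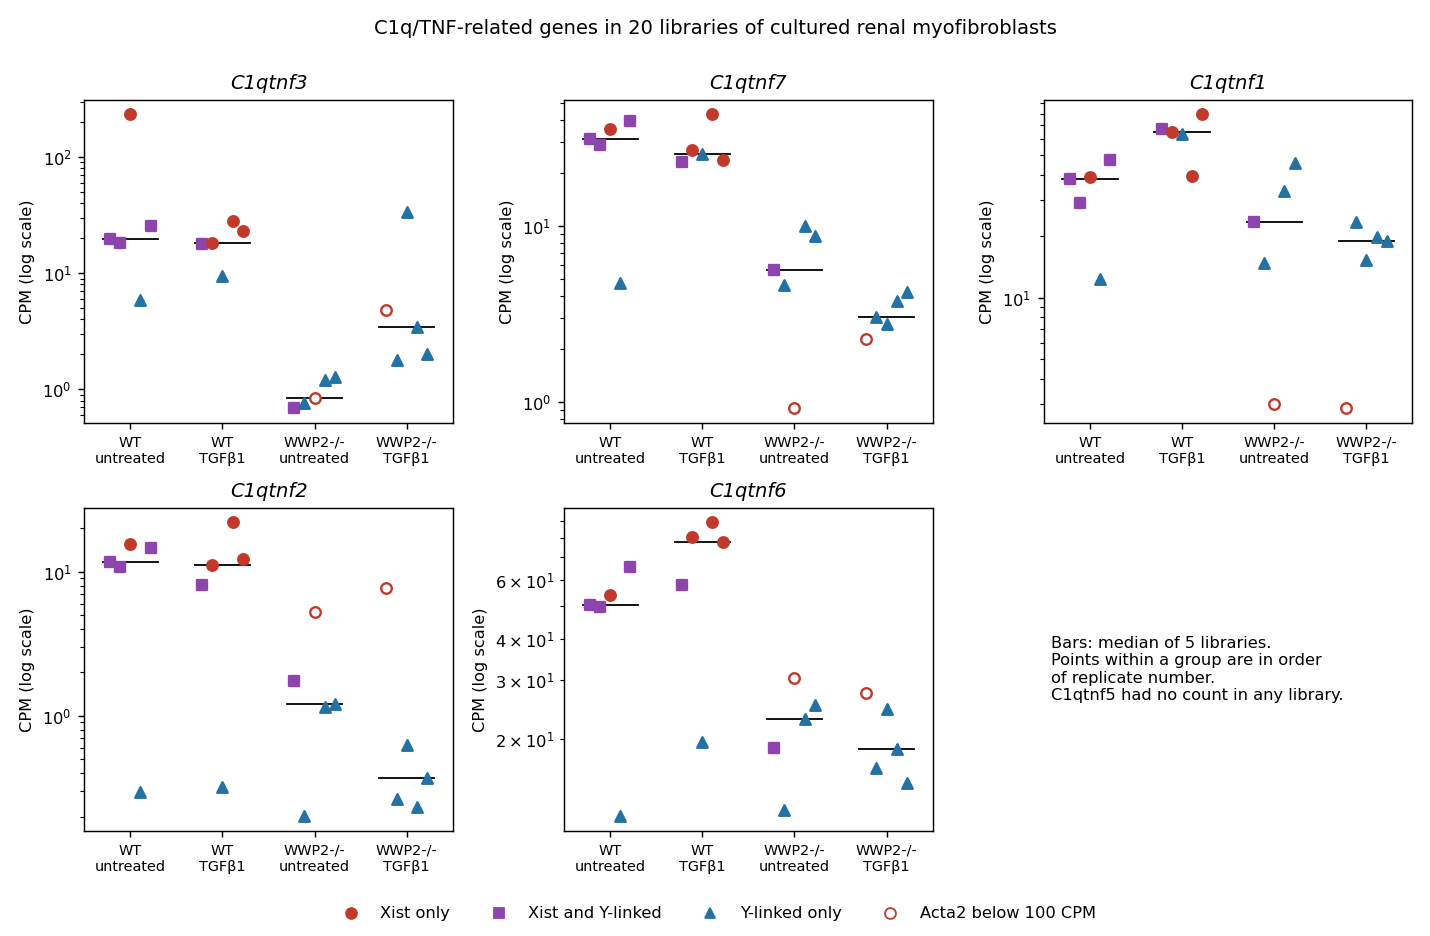
CPM on a log scale for 5 C1q/TNF-related genes in each of 20 libraries, by genotype and treatment. Bars are medians of 5 libraries, symbols give the *Xist* and Y-linked class, and open symbols mark the libraries with *Acta2* below 100 CPM. Untreated WWP2-/- libraries lie between 0.688 and 1.27 CPM for *C1qtnf3*, and *C1qtnf2* follows the symbol class within each genotype.

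*C1qtnf7*, a less studied member of the family, separated the genotypes most evenly with TGFβ1. In treated WT cells it was at 23.0, 26.8, 25.5, 42.9, and 23.6 CPM. In treated WWP2-/- cells it was at 2.27, 3.04, 2.78, 3.75, and 4.25 CPM. No library of either group reached the range of the other, and the log2 fold change was −3.14 (SE 0.528), between −3.27 and −2.94 with each library left out in turn. It was −3.29 with *Xist* as a covariate and −3.05 without the low *Acta2* libraries, so this difference was as large within these alternatives.

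In untreated WT cells *C1qtnf7* was at 31.0, 28.6, 35.6, 4.73, and 39.5 CPM. In untreated WWP2-/- cells it was at 5.65, 4.61, 0.926, 9.96, and 8.74 CPM. The groups overlapped through WT replicate 4 alone, a library with only Y-linked transcripts and with the lowest summed fibroblast markers of all 20, at 2080 CPM. The log2 fold change was −2.22 (SE 0.508). TGFβ1 left *C1qtnf7* without a called change in either genotype. The log2 fold change was 0.02 (SE 0.485, adjusted *P* = 0.998) in WT cells and −0.89 (SE 0.493, adjusted *P* = 1) in WWP2-/- cells by edgeR, and the difference between them was −0.92 (SE 0.690).

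*C1qtnf1*, whose product CTRP1 is an adipokine and a vascular and adrenal signal, had separate ranges in the 2 genotypes with TGFβ1 and overlapping ones without it. In treated WT cells it was at 67.5, 64.6, 63.5, 39.3, and 79.2 CPM. In treated WWP2-/- cells it was at 2.86, 23.6, 15.3, 19.8, and 18.9 CPM. All treated WWP2-/- libraries lay below all treated WT libraries, with a log2 fold change of −1.97 (SE 0.562), or −2.70 with *Xist* as a covariate. The lowest value belonged to a library with low *Acta2*, and without both such libraries the log2 fold change was −1.70.

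Untreated, *C1qtnf1* was at 38.3, 29.1, 39.2, 12.3, and 47.4 CPM in WT cells. It was at 23.5, 14.7, 3.02, 33.5, and 45.9 CPM in WWP2-/- cells. These groups overlapped widely, and the log2 fold change of −0.46 was smaller than its SE of 0.543. It was −1.13 with *Xist* as a covariate and −0.20 without the low *Acta2* libraries. With TGFβ1, 4 of 5 WT libraries exceeded every untreated WT library, with a log2 fold change of 0.92 (SE 0.546, adjusted *P* = 0.837, edgeR). In WWP2-/- cells the log2 fold change was −0.58 (SE 0.544, adjusted *P* = 1). The difference between these responses was −1.50 (SE 0.771).

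*C1qtnf2* and *C1qtnf6*, like *C1qtnf3*, ran in parallel with the *Xist* class of the libraries within WT cells. There the class rests on 2 libraries without *Xist*, untreated replicate 4 and treated replicate 3. These also had the lowest summed fibroblast markers of their groups, at 2080 and 7590 CPM. *C1qtnf2* encodes CTRP2, among the closest relatives of adiponectin. In untreated WT cells it was at 11.7, 10.8, 15.5, 0.295, and 14.7 CPM, and in treated WT cells at 8.09, 11.1, 0.319, 21.9, and 12.2 CPM. The single low library in each WT group was the one with only Y-linked transcripts, so that the 8 WT libraries with *Xist* were at 8.09 CPM or more and the other 2 at 0.319 CPM or less.

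In WWP2-/- cells *C1qtnf2* was at 1.74, 0.201, 5.27, 1.16, and 1.22 CPM untreated, and at 7.73, 0.266, 0.625, 0.234, and 0.370 CPM with TGFβ1. The highest value of each group belonged to the library with *Xist* alone, which was also the library with low *Acta2*. The 7 WWP2-/- libraries with only Y-linked transcripts were between 0.201 and 1.22 CPM, a range that held both WT libraries of the same class. Among libraries with *Xist*, those of WWP2-/- cells were at 7.73 CPM or less and those of WT cells at 8.09 CPM or more. The WWP2-/- side of this comparison was only 2 libraries with *Xist* alone, both with low *Acta2*, and 1 with both transcripts. The log2 fold change between genotypes was −2.47 (SE 1.14) untreated and −2.54 (SE 1.14) with TGFβ1. With *Xist* as a covariate it shrank to −0.27 and −0.89, whereas without the libraries of low *Acta2* it was −3.32 and −4.84.

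*C1qtnf6*, over a narrower range, also had its lowest WT value of each group in the library with only Y-linked transcripts. It was at 50.4, 49.8, 54.0, 11.8, and 65.6 CPM in untreated WT cells and at 58.0, 80.6, 19.6, 89.02, and 78.0 CPM in treated WT cells. It was at 18.8, 12.3, 30.5, 23.0, and 25.4 CPM in untreated WWP2-/- cells and at 27.5, 16.4, 24.6, 18.7, and 14.8 CPM with TGFβ1. The 8 WT libraries with *Xist* lay above all 10 WWP2-/- libraries, and both WT libraries with only Y-linked transcripts lay within or just below the WWP2-/- range. Among WWP2-/- libraries the 2 with *Xist* alone were highest. The one with both transcripts, at 18.8 CPM, lay within the range of those with only Y-linked transcripts. The log2 fold change between genotypes was −1.07 (SE 0.397) untreated and −1.67 (SE 0.403) with TGFβ1, and −0.40 and −0.84 with *Xist* as a covariate. The genotype, the class of the libraries, and their summed fibroblast markers cannot be told apart fully for these genes. Only 2 WT libraries lacked *Xist*, and both had the lowest markers of their groups.

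No change of either gene with TGFβ1 passed the test. For *C1qtnf2* the log2 fold change was 0.02 (SE 1.08, adjusted *P* = 0.999) in WT and −0.05 (SE 1.09, adjusted *P* = 1) in WWP2-/- cells by edgeR. For *C1qtnf6* it was 0.49 (SE 0.393, adjusted *P* = 0.902) in WT and −0.11 (SE 0.393, adjusted *P* = 1) in WWP2-/- cells, where the treated and untreated values overlapped. The differences between the responses were −0.07 (SE 1.53) and −0.60 (SE 0.556).

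*C1qtnf5*, whose product is known from the retinal pigment epithelium, was listed at 0 in all 20 libraries. All 1589 of its exon bases (chr9:44107245-44109187, plus strand) lie under exons of *Mfrp* on the same strand, with which it shares a transcript. *Mfrp* had 0 to 19 counts per library, and how reads in exons of both genes were assigned is not given in the sources used here. A count of 0 allows at most 0.0411 to 0.0631 CPM per library, but only for reads that could have been assigned to *C1qtnf5*. Its level was therefore not measurable from these counts, and it entered no comparison. Of the other genes, *C1qtnf1* shares 20.5% of its exon bases with the antisense gene *Gm11747*, which had 0 to 8 counts per library. *C1qtnf6* shares 4.33% with *Gm49490*, and the remaining 3 genes share none.

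Read together, all 5 measurable genes had lower fitted levels in WWP2-/- than in WT cells under both conditions, and the choice of genes rested on this contrast. The median log2 fold change was −2.22 untreated and −1.97 with TGFβ1, against 0.08 and 0.05 over all genes tested. No library overlap was seen for 1 of 5 genes untreated (*C1qtnf3*) and for 2 of 5 with TGFβ1 (*C1qtnf1* and *C1qtnf7*). A complete separation downward in WWP2-/- cells was seen in 1.29% of genes tested untreated and in 3.08% with TGFβ1. With *Xist* as a covariate all 5 log2 fold changes stayed below 0 in both conditions. The 5 genes thus shared a direction but not a pattern. *C1qtnf3* was lowest without TGFβ1, *C1qtnf1* was set apart with it, and *C1qtnf7* was low in both. *C1qtnf2*, *C1qtnf6*, and *C1qtnf3* differed with the class of the library in WT cells. For *C1qtnf3* the WT libraries with only Y-linked transcripts were at 9.42 CPM or less and those with *Xist* at 17.9 CPM or more. Among the libraries holding *Xist*, all 5 genes were lower in WWP2-/- than in WT cells. The WWP2-/- side there was only 2 libraries with *Xist* alone, both with low *Acta2*, and 1 with both transcripts.

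**Figure D2:**
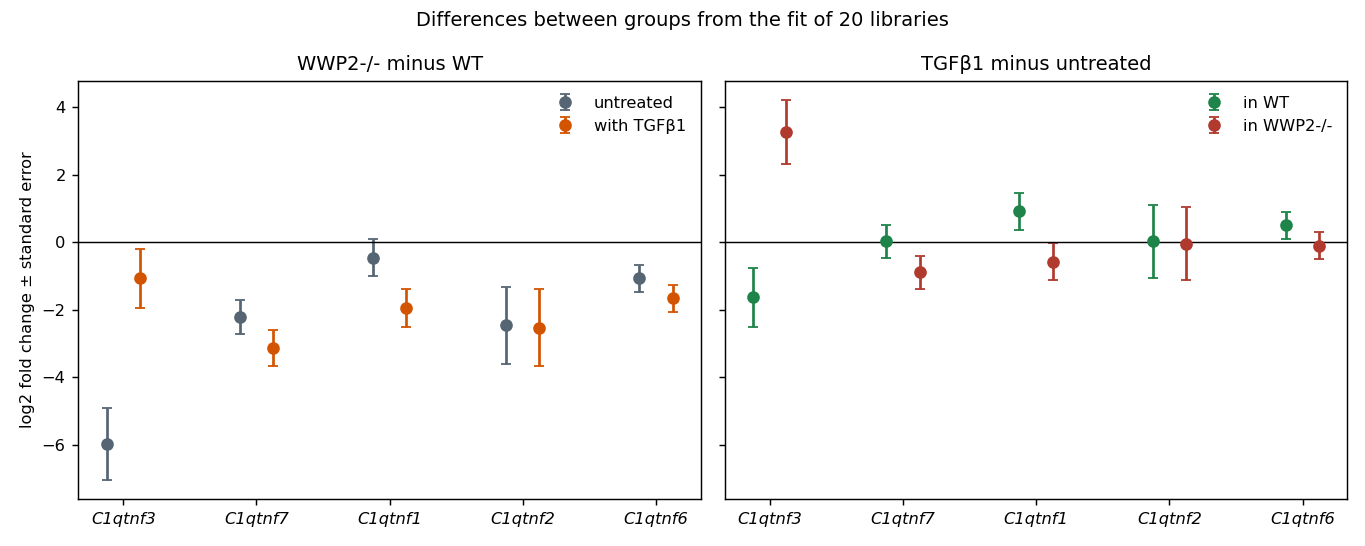
Log2 fold changes with standard errors from the fit of all 20 libraries for 5 C1q/TNF-related genes. The left panel gives WWP2-/- minus WT, all 10 values below 0, and the right panel TGFβ1 minus untreated, where *C1qtnf3* in WWP2-/- cells is the farthest from 0 at 3.26.

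The tests of TGFβ1 called none of the 5 genes in WT or WWP2-/- cells. They called 0.0% of all genes in WT cells, in WWP2-/- cells, and for the difference between the responses. By edgeR's quasi-likelihood test, 0 of 20407 genes passed in each, with 1397, 713, and 1424 genes at an unadjusted *P* under 0.05. DESeq2 called 27, 44, and 10 genes, with *C1qtnf3* among those of WWP2-/- cells. Of 10 known TGFβ1 response genes, edgeR likewise called none in either genotype. Their summed level had a median of 8370 and 14300 CPM in untreated and treated WT cells, and of 8220 and 7370 CPM in WWP2-/- cells. The lack of a call is therefore not evidence that a gene does not respond.

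Levels of different genes were compared per kilobase of exon. In untreated WT cells *C1qtnf3* came first at 23.6±37.7 CPM per kb, and was followed by *C1qtnf6* (17.1±7.52), *C1qtnf1* (10.6±4.28), *C1qtnf2* (8.09±4.65), and *C1qtnf7* (6.70±3.27). The first place of *C1qtnf3* came from the one high library, and the ranges of all neighbours in this order overlapped. In untreated WWP2-/- cells *C1qtnf6* (8.14±2.55 CPM per kb) and *C1qtnf1* (7.70±5.29) came first and *C1qtnf3* last at 0.373±0.104. With TGFβ1 *C1qtnf6* was first in both genotypes, at 24.1±10.3 CPM per kb in WT and 7.56±2.01 in WWP2-/- cells. *C1qtnf7* was the last of the 5 in treated cells of both genotypes, at 6.81±1.98 and 0.774±0.189 CPM per kb. The ranges of neighbours among the 5 overlapped in each group.

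Across the 20 libraries the highest correlations among the genes were within a pair of couples and not with *C1qtnf3*. Pearson's *r* of log2(CPM + 0.5) was 0.929 between *C1qtnf2* and *C1qtnf6* and 0.923 after removing the group means. It was 0.822 between *C1qtnf1* and *C1qtnf7* and 0.751 after removing the group means. Across the couples it was 0.733 for *C1qtnf6* with *C1qtnf7* and 0.629 for *C1qtnf2* with *C1qtnf7*. For *C1qtnf1* it was 0.486 with *C1qtnf6* and 0.239 with *C1qtnf2*. Within groups these 4 values fell to 0.412, 0.245, 0.0517, and −0.231. With *C1qtnf3*, *r* was 0.700 for *C1qtnf6*, 0.688 for *C1qtnf7*, 0.632 for *C1qtnf2*, and 0.439 for *C1qtnf1*, falling to 0.561, 0.351, 0.457, and 0.139 within groups. These values describe 20 libraries that share genotype, treatment, and *Xist* class, and they were not tested. The median *r* with *C1qtnf3* over 13518 genes with a mean of at least 1 CPM was −0.05, and 15.1% of genes had an *r* above 0.5. In WT libraries alone the 4 genes had a median *r* with *C1qtnf3* of 0.552, and in WWP2-/- libraries alone of −0.10. In the latter *r* was 0.273 for *C1qtnf6* and −0.138, −0.06, and −0.255 for *C1qtnf1*, *C1qtnf2*, and *C1qtnf7*.

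**Figure D3:**
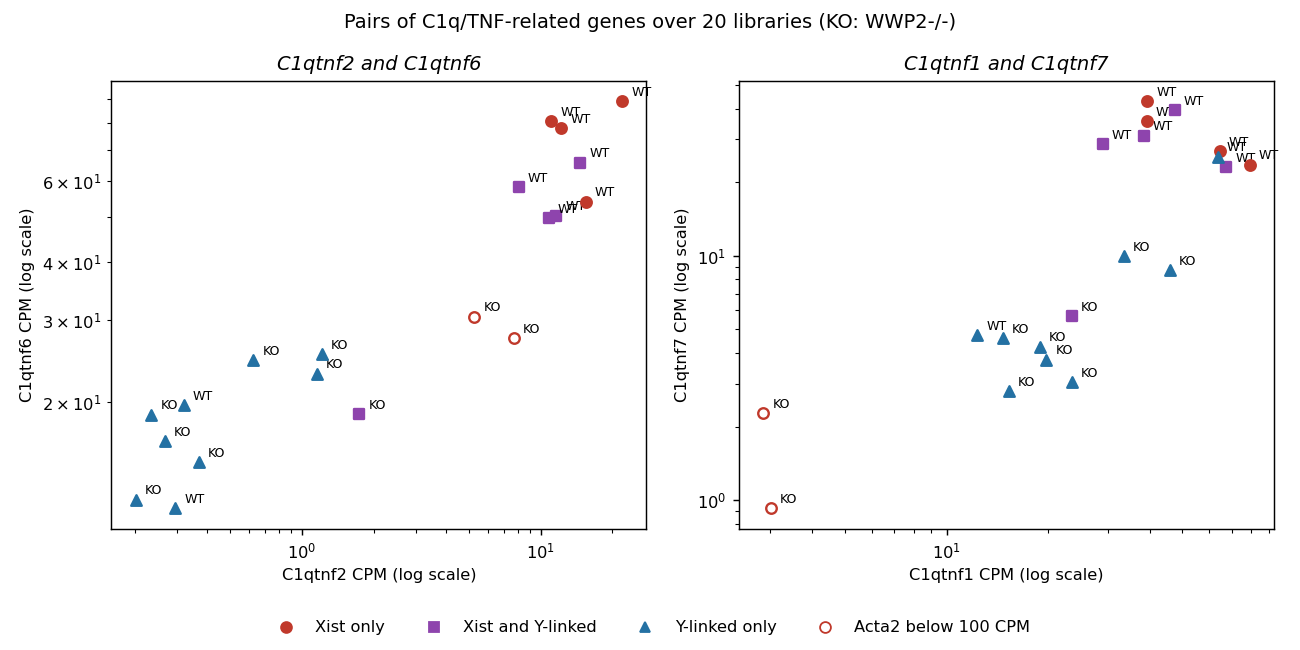
CPM of *C1qtnf6* against *C1qtnf2* (left) and of *C1qtnf7* against *C1qtnf1* (right) on log axes, 1 point per library. On the left the 8 WT libraries with *Xist* form the upper right group and both WT libraries with only Y-linked transcripts lie among those of WWP2-/- cells, and on the right the low *Acta2* libraries have the lowest *C1qtnf1*.

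The genes most like *C1qtnf3* over the 20 libraries were *Atl1* (*r* = 0.930), *Col8a2* (0.918), *Fkbp7* (0.917), *Plcg1* (0.915), *Gstm6* (0.906), and *Acot11* (0.898). *Col8a2*, which encodes a chain of collagen VIII with the same C1q domain at its end, had means of 29.7 CPM in untreated WT and 0.321 CPM in untreated WWP2-/- cells, beside 60.3 and 0.953 CPM for *C1qtnf3*. The other 5 changed far less in level, with *Atl1*, an endoplasmic reticulum GTPase, at 12.9 and 9.59 CPM. The 3 most opposed genes were *Noct* (−0.885), *Chka* (−0.880), and *Pced1b* (−0.873). With Spearman's rho 2 of the 6 remained among the top 6, and with WT or WWP2-/- libraries alone none did.

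Of 24 other genes with a C1q domain, 17 were tested. This list and that of receptors below were drawn up with earlier results of these data known. Their *P* values are therefore not independent of that choice. With TGFβ1, 4 of them were lower in WWP2-/- than in WT cells and none was higher, in a comparison that called 6.07% of all genes tested. These were *C1ql3*, whose product binds a synaptic adhesion receptor (4.16±0.910 against 1.26±0.407 CPM, log2 fold change −1.72, adjusted *P* = 0.0157), and *Col8a2* (15.9±12.4 against 1.55±2.42 CPM, −3.36, adjusted *P* = 0.0448). The others were the elastic fiber glycoproteins *Emilin1* (279.9±43.8 against 117.9±49.6 CPM, −1.25, adjusted *P* = 0.0373) and *Emilin2* (49.3±26.8 against 9.19±7.09 CPM, −2.42, adjusted *P* = 0.0351), all by edgeR. Untreated, *Col8a2* alone passed (29.7±26.7 against 0.321±0.0411 CPM, log2 fold change −6.52, adjusted *P* = 0.0214), in a comparison that called 0.725% of all genes. The median log2 fold change of the 17 genes was −0.32 with TGFβ1 and −0.09 untreated. None of these calls was made with *Xist* as a covariate or without the libraries holding both *Xist* and Y-linked transcripts. The treated count was 2 with no filter and in a fit of only the groups compared, and 7 by DESeq2 and without the low *Acta2* libraries. The treated count fell to 1 without any one of WT replicates 1, 2, 4, and 5 or WWP2-/- replicates 2, 4, and 5, and the untreated call was lost without any one of WT replicates 3 and 5 or WWP2-/- replicates 1, 3, 4, and 5, under the replicate block, and in a fit of only the groups compared.

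*Col8a1*, which encodes the partner chain of *Col8a2*, was at 1043±531.6 and 1441±426.5 CPM in untreated and treated WT cells and at 348.7±209.2 and 459.1±349.2 CPM in WWP2-/- cells. Its log2 fold changes of −1.58 and −1.65 did not pass (adjusted *P* = 0.238 and 0.101, edgeR). *C1qtnf12*, a further CTRP gene, had similar means in the 4 groups, at 15.7±1.74 and 17.2±1.99 CPM in WT and 14.8±4.57 and 13.7±4.13 CPM in WWP2-/- cells. Its log2 fold changes between genotypes were −0.09 and −0.32 (adjusted *P* = 0.878 and 0.411). *C1qtnf4* and *Adipoq* were at most at 1.09 CPM in any library, and *C1qtnf9* was too low to be tested.

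The subunits of complement C1q, which are made by macrophages, varied widely among libraries and did not pass any test. *C1qa* was at 52.1±61.7 and 9.90±8.44 CPM in untreated and treated WT cells and at 29.2±26.2 and 57.1±49.2 CPM in WWP2-/- cells. With TGFβ1 the log2 fold changes between genotypes were 2.53, 2.71, and 2.51 for *C1qa*, *C1qb*, and *C1qc* (adjusted *P* = 0.137, 0.142, and 0.165, edgeR). They stood against *C1qtnf2* across libraries, with *r* between −0.660 and −0.607. The summed level of 6 macrophage markers ran from 17.4 to 284 CPM over all libraries. *Mmrn2* and *Col10a1*, also above 10 CPM in a group mean, did not pass in any comparison and stood against *C1qtnf2* in the same way (*r* −0.758 and −0.679).

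Among 8 receptors and partners of the family, *Scarb2* alone passed a test, in the treated comparison of genotypes that called 6.07% of all genes. This lysosomal membrane protein, proposed with *Lamp1* as a receptor of CTRP3, was at 501.3±160.5 CPM in treated WT and 236.1±42.5 CPM in treated WWP2-/- cells (log2 fold change −1.09, SE 0.247, adjusted *P* = 0.0169, edgeR). The call was lost with *Xist* as a covariate, without the libraries holding both *Xist* and Y-linked transcripts, in a fit of only the groups compared, and without WT replicate 2 or 5. *Scarb2* followed *C1qtnf6* closely over the libraries (*r* = 0.966) and *Emilin2* followed *C1qtnf2* (*r* = 0.950). The adiponectin receptors *Adipor1* (257.5±32.0 and 249.5±34.8 CPM in WT, 211.6±13.4 and 223.7±19.7 CPM in WWP2-/- cells) and *Adipor2* (85.6±8.92, 94.3±13.9, 88.6±16.5, and 93.3±27.2 CPM) did not pass between genotypes, and neither did *Lamp1* or *Cdh13* (T-cadherin). No gene of the list passed a test of TGFβ1.

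**Figure D4:**
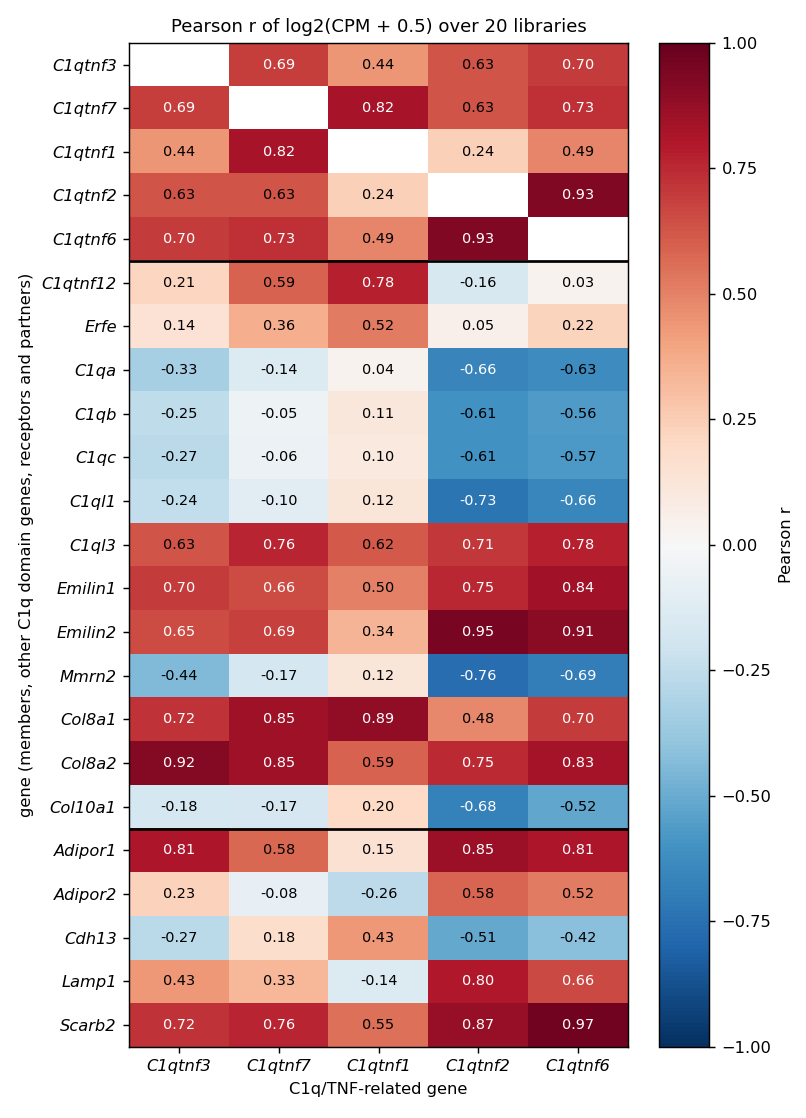
Pearson's *r* of log2(CPM + 0.5) over 20 libraries between each of 5 C1q/TNF-related genes (columns) and the family, other C1q domain genes, and receptors or partners (rows, separated by lines). *C1qtnf2* and *C1qtnf6* share a column pattern, high for *Emilin2* and *Scarb2* and negative for *C1qa*, *Mmrn2*, and *Col10a1*, and *C1qtnf1* has its highest values with *Col8a1* (0.885) and *C1qtnf7* (0.822).

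Of the 10 nearest tested genes, 9 passed no test and 1 passed with TGFβ1 between genotypes, where 6.07% of all genes did. *Amacr*, 1606 bases beyond the end of *C1qtnf3* (chr15:10952332-10980150), was at 12.7 and 13.3 CPM in WT and 10.4 and 11.5 CPM in WWP2-/- cells, with log2 fold changes of −0.30 and −0.21 (adjusted *P* = 0.345 and 0.389, edgeR). *Cpeb2* and *Cc2d2a* on either side of *C1qtnf7* (chr5:43515538-43618803) had log2 fold changes of 0.27 and −0.22 with TGFβ1 (adjusted *P* = 0.497 and 0.201), beside −3.14 for *C1qtnf7*. *Cant1* and *Engase* around *C1qtnf1* (chr11:118428203-118449963) had −0.15 and −0.22, and *Slu7* and *Ccnjl* around *C1qtnf2* (chr11:43474276-43491525) had 0.19 and 1.98, none of which passed. The one call was *Gm6723*, near *C1qtnf6* (chr15:78523346-78531416, minus strand), at 0.129 against 0.0357 CPM with TGFβ1 (log2 fold change −1.83, adjusted *P* = 0.0343), a level of a few counts per library. The family genes lie on chromosomes 5, 9, 11, and 15, with 2 each on 11 and 15 that are not neighbours.

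Markers of the cell types that could be present in such cultures were summarized as differences between genotypes and as summed levels. All 8 fibroblast markers had log2 fold changes below 0 in WWP2-/- cells in both conditions (medians −1.79 and −2.44), and 2 of them passed with TGFβ1 and none untreated, where 6.07% and 0.725% of all genes did. Other calls, all lower in WWP2-/- cells, were 1 myofibroblast, 2 endothelial, and 1 cartilage and tendon marker with TGFβ1, and 1 endothelial and 1 cartilage and tendon marker untreated. The endothelial list as a whole went the other way, with 4 of 6 markers above 0 in each condition (medians 0.74 untreated and 0.53 with TGFβ1). Of 7 tested cartilage and tendon markers, 5 were above 0 untreated and 3 with TGFβ1 (medians 0.12 and −0.19). Of 6 myofibroblast markers, 5 were above 0 untreated and 2 with TGFβ1 (medians 0.70 and −0.37). Of the 6 adipocyte markers, *Plin1*, *Cidec*, *Lep*, *Pck1*, and *Adipoq* stayed below 1 CPM in every library, and the summed level of all 6 was between 0.746 and 21.6 CPM. Of 8 cartilage and tendon markers, *Acan* and *Chad* stayed below 1 CPM in every library, and their summed level was between 22.7 and 119 CPM. Summed tubular epithelial markers were between 14.5 and 616 CPM, with *Aqp2*, *Umod*, and *Slc34a1* below 1 CPM in every library, and summed endothelial markers between 6.08 and 169 CPM. With TGFβ1 all 6 macrophage markers and all 5 tested tubular epithelial markers had log2 fold changes above 0 in WWP2-/- cells (medians 2.49 and 1.56), opposite to the fibroblast markers, and none passed the test. Untreated, all 6 macrophage markers were below 0 (median −0.72) and 4 of the 5 tubular epithelial markers above it (median 0.51). The part of these cell types in the levels of the C1q/TNF-related genes was not tested.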

How the data were processed

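The authors mapped paired-end reads of poly-A RNA to GRCm38 with STAR, counted them on exons per gene with featureCounts, and deposited the raw counts of 20 libraries in 1 table, with no normalization. The strand setting and the treatment of reads in 2 genes are not given in the sources used here, so reads of a gene and its antisense partner cannot be told apart. No column belonged to another sample (0 columns). Names came from GENCODE M21, another release than the authors used, for 51633 of 51826 genes.

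Genes needed 5 counts or more in 5 libraries or more, which left 20407 (99.98% of counts), and were tested in R 4.3.3 with edgeR 4.0.16: quasi-likelihood test, TMM normalization, 4 group means in 1 fit, and Benjamini–Hochberg adjustment over all genes with a threshold of 0.05. The test was tried on simulated data first. CPM are TMM-normalized. A floor of 3 counts corresponds to 0.0411 to 0.0631 CPM per library, for counting error only. Alternatives were the size factors and the Wald test of DESeq2 1.42.0, other filters, the replicate block, *Xist* as a covariate, fits of only the groups compared, and leaving out libraries. Leaving out libraries with *Acta2* below 100 CPM was added after seeing the data.

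The genes, lists, and tests were chosen with earlier results of these data known. Named beside the 6 genes were the 6 most and 3 least like *C1qtnf3*, the nearest tested and overlapping genes, and the C1q domain and receptor genes with a mean of at least 10 CPM in a group or a call. Promoter windows are from RefSeq (GRCm38.p6).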

Additional observations from a re-analysis of the deposited data

Results flagged for a closer look

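Combinations of a measured gene and a group of 5 libraries numbered 20. Of these, 4 held a library farther from the others in CPM than a test for a single extreme value allows. Chance gives about 1 in 20 only for independent groups with a normal spread. The genes share libraries, and on the CPM scale high values stand out more readily than low ones. *C1qtnf3* was at 232 CPM in untreated WT replicate 3, and at 33.8 CPM in TGFβ1-treated WWP2-/- replicate 3. *C1qtnf2* was at 7.73 CPM in treated WWP2-/- replicate 1, a library with low *Acta2*. *C1qtnf7* was at 42.9 CPM in treated WT replicate 4.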

How the results depend on the processing

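The main limits are the spread within groups and the uneven *Xist* classes. Depth did not limit the 5 measured genes, each of which had at least 13 counts in every library. Between genotypes with TGFβ1, 1238 genes were called, against 790 with no filter, 670 with the replicate block, 544 with *Xist* as a covariate, 2 without libraries holding both *Xist* and Y-linked transcripts, 534 in a fit of only the groups compared, 3480 without low *Acta2* libraries, 2672 by DESeq2, and 453 to 2730 with each library left out. Untreated, 148 were called, against 1, 83, 1, 1, 271, and 747 under the replicate block, *Xist*, both transcripts, only the groups compared, low *Acta2*, and DESeq2 in turn, and 1 to 743 with each library left out. For TGFβ1, the count of 0 became 1 in WT cells with *Xist* and 27 by DESeq2, 44 in WWP2-/- cells by DESeq2 and 0 to 63 with each library left out, and 10 for the difference by DESeq2. DESeq2 called 1 of the C1q/TNF-related genes in WWP2-/- cells and 1 for the difference, the latter built from the contrasts used to choose the genes and therefore no independent test.

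The levels showed no regular pairing by replicate number: treated and untreated libraries of 1 number had correlated deviations of −0.54 to 0.472. Of the untreated libraries, only WT replicate 1 had its closest treated library under its own number (0.396). These values do not settle whether libraries of 1 number share a mouse or culture. Under the replicate block the change of *C1qtnf3* with TGFβ1 in WWP2-/- cells was 2.21 and the difference between responses 2.57. Log2 fold changes with TGFβ1 close to 0 turned sign: *C1qtnf2* in WT (−0.00418 with at least 10 counts in every library, −0.00103 in only the groups compared, −0.45 to 0.329 with each library left out), *C1qtnf7* in WT (−0.0299 with the replicate block, −0.00307 with *Xist*, −0.255 to 0.183), and *C1qtnf6* in WWP2-/- cells (0.0458 with *Xist*, −0.239 to 0.0437). So did *C1qtnf2* in WWP2-/- cells (−2.33 to 0.788), its difference between responses (−2.35 to 0.772), and *C1qtnf3* in WT (−1.95 to 0.155). The median *r* with *C1qtnf3* was 0.552 in WT libraries and −0.102 in WWP2-/- libraries, with −0.138 for *C1qtnf1*, −0.0649 for *C1qtnf2*, and −0.255 for *C1qtnf7*, but 0.273 for *C1qtnf6*, in the latter. The cause was not tested. All genotype differences of the 5 genes stayed below 0 under every alternative run.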
